A study of Mus musculus with 12 samples.

Results

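The Ca2+/calmodulin-dependent protein kinase II (CaMKII) family comprises the genes Camk2a, Camk2b, Camk2d and Camk2g, which encode the alpha, beta, delta and gamma subunits. The members were taken by gene symbol, giving 4 of the 36008 genes in the expression table. The splicing tables held 15 Camk2 events in the gastrocnemius, of 2423 listed, and 15 in the quadriceps, of 2416 listed. The same 15 events were listed in both muscles and covered 13 distinct exons, of which 6 belonged to Camk2g, 4 to Camk2b and 3 to Camk2d. No Camk2a event was listed.

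The gastrocnemius, a calf muscle, and the quadriceps, a thigh muscle, of each of 6 female mice were sequenced, 3 ground control mice (M02, M03 and M08) and 3 flight mice (M11, M12 and M20). The study compared mice kept for 9 weeks on the International Space Station with mice kept for the same time on the ground in identical housing hardware, to ask how the muscles adapt to microgravity. All 6 mice were 30 weeks old at the start and received subcutaneous phosphate-buffered saline every 2 weeks, the control arm of an osteoporosis drug trial, so no mouse was without injections. The sample labels give the strain as C57BL/6 and the study's methods give BALB/c. Carcasses were frozen and later thawed before the left hind limb was dissected. Each of the 12 libraries came from 1 muscle of 1 mouse, making 4 groups of 3. Replicates 1, 2 and 3 were M02, M03 and M08 on the ground and M11, M12 and M20 after flight.

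Camk2a (ENSMUSG00000024617) lies at chr18:60925618-60988152 on the plus strand of GRCm38 (mm10), and Camk2b (ENSMUSG00000057897) at chr11:5969644-6066362 on the minus strand. Camk2d (ENSMUSG00000053819) lies at chr3:126596302-126846326 on the plus strand, and Camk2g (ENSMUSG00000021820) at chr14:20734875-20794088 on the minus strand. Of the distinct 31-base words in the annotated transcripts of each gene, 0.79% in Camk2a, 0.349% in Camk2b, 0.118% in Camk2d and 0% in Camk2g also occurred in another gene, so few positions could give reads shared between genes.

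CaMKII subunits assemble into large rings in which a kinase domain is joined to an association domain by a variable linker. Calcium-bound calmodulin activates the kinase, and phosphorylation by a neighboring subunit then keeps it active after calcium falls, so that the ring can respond to the frequency of calcium pulses. Alternative exons in the linker change its length, its calmodulin response and its location in the cell. In skeletal muscle the kinase acts near the sarcoplasmic reticulum on calcium release and uptake, and on transcription through class II histone deacetylases and MEF2. The Camk2a locus also produces alpha-KAP, a non-kinase protein that anchors CaMKII at the sarcoplasmic reticulum, and a value per gene does not separate it from the kinase.

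The linker exons are related between members, which is why they are shown as sets. The closest pair was the 45-base exon of Camk2b (chr11:5981070-5981114) and the 42-base exon of Camk2d (chr3:126808208-126808249), with 73.3% identical bases over the alignment. In the lines below, capitals mark bases identical in the pair, and each sequence is written 5′ to 3′ on the strand of its gene.
Camk2b 45-base exon: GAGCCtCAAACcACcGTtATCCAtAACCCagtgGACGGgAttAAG
Camk2d 42-base exon: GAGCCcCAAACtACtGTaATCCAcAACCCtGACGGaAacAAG
Of 45 aligned columns, 33 were identical.

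A second set joined the 72-base exon of Camk2b (chr11:5982501-5982572), the 60-base exon of Camk2d (chr3:126805857-126805916) and the 69-base exon of Camk2g (chr14:20745792-20745860). The Camk2b exon shared 58.3% of aligned bases with the Camk2d exon and 60.3% with the Camk2g exon, and the Camk2d and Camk2g exons shared 52.2% with each other. In the Camk2b and Camk2d lines capitals mark bases that these 2 exons share, and in the Camk2g line bases shared with Camk2b.
Camk2b 72-base exon: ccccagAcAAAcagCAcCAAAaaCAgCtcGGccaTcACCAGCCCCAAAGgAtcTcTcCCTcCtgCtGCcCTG
Camk2d 60-base exon: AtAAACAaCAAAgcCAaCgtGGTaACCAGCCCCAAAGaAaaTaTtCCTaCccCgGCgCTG
Camk2g 69-base exon: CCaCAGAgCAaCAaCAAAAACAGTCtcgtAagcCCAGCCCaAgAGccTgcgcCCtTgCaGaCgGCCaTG
Of 72 aligned columns, 42 were identical between the Camk2b and Camk2d exons. Another related pair, the 75-base exon of Camk2b (chr11:5987057-5987131) and the 63-base exon of Camk2g (chr14:20757666-20757728), shared 58.7%, and the Camk2g exon had a GC content of 81.0%.

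The last exon shown has no close counterpart among the 13. The 33-base exon of Camk2g (chr14:20747819-20747851) begins with lysine and arginine codons, in capitals below, and belongs to the class of CaMKII exons known to carry a nuclear localization signal.
Camk2g 33-base exon: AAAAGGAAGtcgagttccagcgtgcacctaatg
Of the 13 exons, 12 are coding only, and the 89-base Camk2d exon (chr3:126841485-126841573) holds the end of a reading frame and 3′ untranslated sequence. The 55-base (chr14:20771007-20771061) and 95-base (chr14:20764861-20764955) exons of Camk2g have lengths that are not multiples of 3, and 0 annotated coding transcripts skip either one between their flanking exons. The 114-base Camk2g exon (chr14:20741378-20741491) completes the set.

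Expression was given as TPM (transcript abundance), which is scaled per transcript length and per library, so levels can be compared between genes but carry no counting depth. All 4 genes passed the filter of over 5 TPM in at least 1 library, and so did 10481 genes in all. In bulk muscle, fewer cells of a type and less RNA per cell cannot be told apart.

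Camk2a, the alpha subunit gene, was listed in the ground control gastrocnemius at 135, 136 and 144 TPM and in the flight gastrocnemius at 168, 140 and 143 TPM. In the quadriceps it was at 158, 176 and 157 TPM on the ground and at 189, 180 and 209 TPM after flight. The gastrocnemius groups overlapped, with M11 alone above the rest, while every flight quadriceps was above every ground control quadriceps.

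Camk2g, the gamma subunit gene, was at 120, 136 and 127 TPM in the ground control gastrocnemius and at 142, 135 and 139 TPM in the flight gastrocnemius. Quadriceps values were 155, 139 and 162 TPM on the ground and 146, 133 and 146 TPM after flight. Ground and flight values overlapped in both muscles.

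Camk2b, the beta subunit gene, was at 64.0, 69.3 and 62.1 TPM in the ground control gastrocnemius and at 66.7, 61.4 and 58.8 TPM in the flight gastrocnemius. Its quadriceps values were 74.6, 70.2 and 68.0 TPM on the ground and 66.1, 57.5 and 65.9 TPM after flight. Flight values overlapped ground values in the gastrocnemius and all lay below them in the quadriceps.

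Camk2d, the delta subunit gene, was at 39.6, 31.0 and 34.7 TPM in the ground control gastrocnemius and at 37.4, 32.1 and 37.6 TPM in the flight gastrocnemius. The quadriceps values were 42.7, 47.8 and 46.9 TPM on the ground and 44.2, 50.8 and 38.5 TPM after flight. Ground and flight overlapped in both muscles. Each quadriceps group lay above the gastrocnemius group of the same condition, which also held for Camk2a, and for Camk2g on the ground. The median gene was itself higher in the quadriceps, by 0.12 on the log2 scale on the ground and 0.11 after flight. The share of all genes whose muscle groups did not overlap was not counted.

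**Figure D1:**
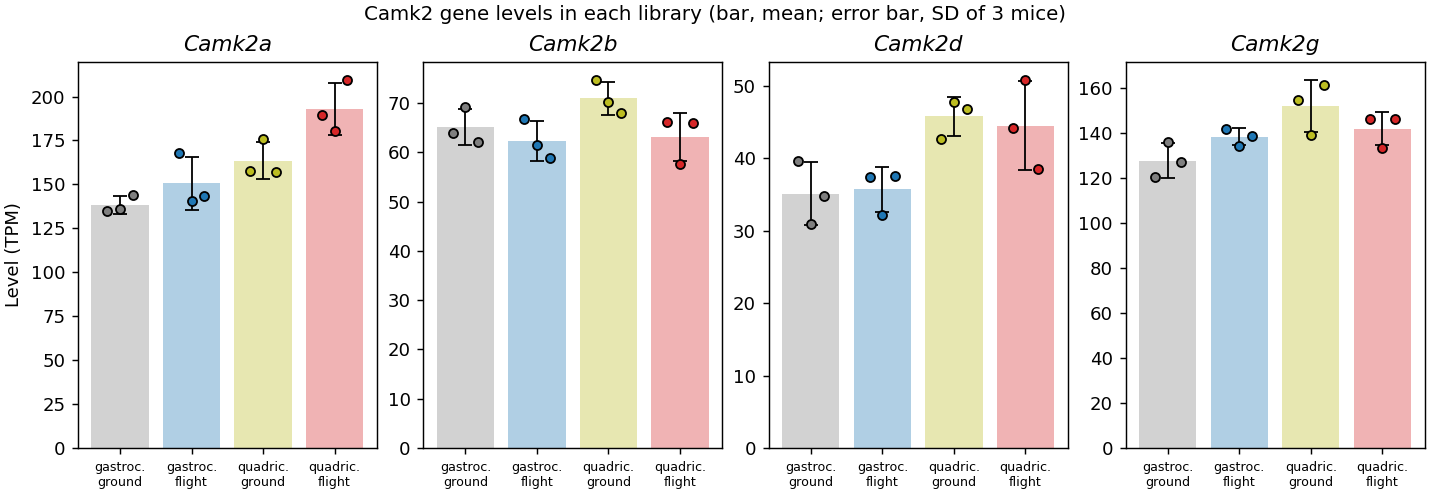
TPM of the 4 Camk2 genes in each of the 12 libraries (y axis, TPM), by muscle and condition, with points for libraries and the group mean and SD (n = 3). Camk2a and Camk2g are the upper pair in every group, Camk2b is between 57.5 and 74.6 TPM, and Camk2d is lowest.

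The mean levels fell in the order Camk2a, Camk2g, Camk2b, Camk2d in all 4 groups. Camk2a and Camk2g were neighbors whose ranges overlapped in 3 groups, with mean ratios of 1.08 to 1.09. In the flight quadriceps their ranges were apart, at a ratio of 1.36, with Camk2a at 192.9 ± 14.8 TPM (SD, n = 3) and Camk2g at 142.0 ± 7.40 TPM. Camk2g was 1.96 to 2.25 times Camk2b and Camk2b was 1.45 to 1.88 times Camk2d, with ranges apart in all 4 groups.

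Flight against ground in the gastrocnemius called none of the 4 genes. Camk2a was at 138.3 ± 4.91 TPM on the ground and 150.6 ± 15.3 TPM after flight (SD, n = 3), a log2 change of 0.12 (95% interval -0.09 to 0.33, limma adjusted p = 0.566). The log2 changes of the others were 0.12 for Camk2g (-0.06 to 0.29, limma adjusted p = 0.501), -0.06 for Camk2b (-0.26 to 0.13, adjusted p = 0.761) and 0.03 for Camk2d (-0.24 to 0.29, adjusted p = 0.935). Every interval ended short of a 1.5-fold change, and 0 of the 4 genes had an unadjusted p under 0.05. Over all genes, 0.229% were called (24 of 10481, limma adjusted p under 0.05 and over 1.5-fold). Groups that did not overlap in either direction made up 21% of all genes, and 0 of the 4 members.

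Flight against ground in the quadriceps also called none of the 4, although 2 members had groups that did not overlap. Camk2a was at 163.5 ± 10.7 TPM on the ground and 192.9 ± 14.8 TPM after flight, a 1.18-fold difference (log2 0.24 ± 0.08 SE, 95% interval 0.04 to 0.43, limma adjusted p = 0.407). Camk2b was at 70.9 ± 3.33 TPM on the ground and 63.2 ± 4.89 TPM after flight (log2 -0.17 ± 0.08 SE, 95% interval -0.37 to 0.03, limma adjusted p = 0.521). Camk2a was the 1 member with an unadjusted p under 0.05, and neither difference passed the adjusted test.

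The other members differed less, by -0.10 on the log2 scale for Camk2g (95% interval -0.29 to 0.10, limma adjusted p = 0.687) and by -0.05 for Camk2d (-0.32 to 0.22, adjusted p = 0.903). Of all genes 0.0286% were called in this comparison (3 of 10481). Groups that did not overlap with flight higher made up 9.24% of all genes, and with flight lower 8.12%, so 1 member in each direction stands against a background of that size. The quadriceps library of ground replicate 3 (M08) had the fewest genes above 0 (18172, against 20291 to 21265 in the other 11 libraries). Its Camk2a value of 157.17 TPM was close to the 157.52 TPM of replicate 1.

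**Figure D2:**
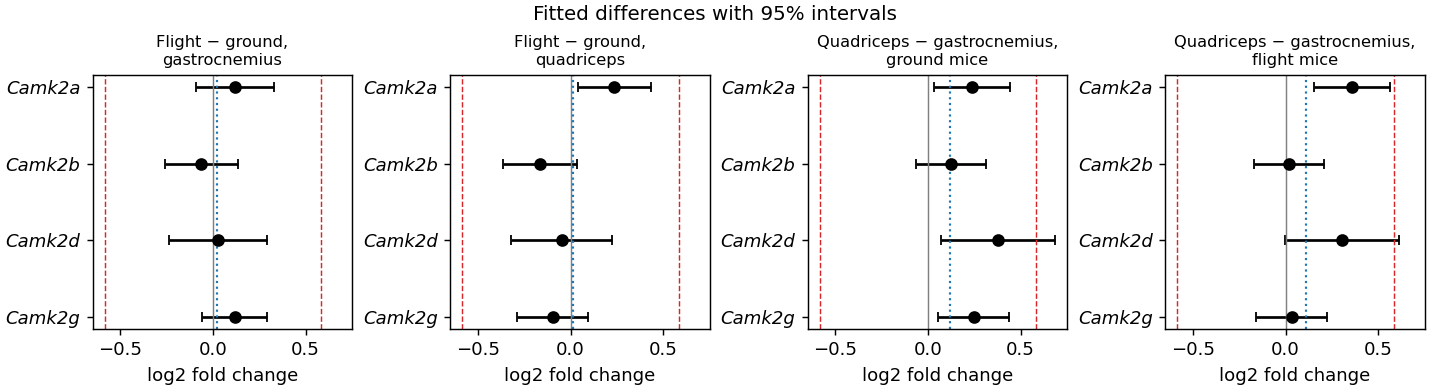
Log2 changes of the 4 Camk2 genes in the 4 pairwise comparisons, with 95% intervals from limma (x axis, log2 fold change of TPM + 1). Red dashed lines mark a 1.5-fold change and the blue dotted line the median of all genes tested. All estimates lie inside the red lines, and both quadriceps-against-gastrocnemius panels have an all-gene median of 0.11 to 0.12.

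Between the muscles, Camk2a after flight was the 1 member and comparison past the adjusted p threshold. In flight mice Camk2a was 1.28-fold higher in the quadriceps than in the gastrocnemius (log2 0.36 ± 0.09 SE, 95% interval 0.15 to 0.56, limma adjusted p = 0.0363, mouse as a block). This was under the 1.5-fold minimum, so the gene was not called by both thresholds. With the adjusted p alone, 11.6% of all genes were higher in the quadriceps of flight mice.

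The Camk2a difference depended on the scaling and on single mice. The median gene was itself higher in the quadriceps by 0.12 on the log2 scale on the ground and 0.11 after flight. Rescaling by median ratios moved that median by 0.11 in both, which left Camk2a 0.24 higher after flight with a limma adjusted p of 0.143. Leaving out 1 mouse at a time gave adjusted p values of 0.0489 to 0.152, and the threshold held only without M08.

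On the ground, Camk2d differed most between the muscles, 1.30-fold (log2 0.38 ± 0.13 SE, 95% interval 0.07 to 0.69, limma adjusted p = 0.102). Camk2g differed by 0.25 (adjusted p = 0.0901), Camk2a by 0.24 (adjusted p = 0.116) and Camk2b by 0.12 (adjusted p = 0.357) on the same scale. Camk2a, Camk2d and Camk2g had a limma unadjusted p under 0.05, as did 3197 of 10481 genes, and none passed the adjusted test. After flight the log2 differences were 0.30 for Camk2d (adjusted p = 0.171), 0.03 for Camk2g (adjusted p = 0.819) and 0.02 for Camk2b (adjusted p = 0.913). After rescaling, the ground differences were 0.26 for Camk2d, 0.12 for Camk2g and 0.11 for Camk2a on the log2 scale. Camk2b in both conditions and Camk2g after flight changed sign, to 0.00, -0.10 and -0.09. Over all genes, 3.2% were called on the ground (335 of 10481) and 3.34% after flight (350 of 10481).

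Within mice, Camk2a and Camk2d were higher in the quadriceps in 6 of 6 mice, Camk2g in 5 and Camk2b in 4. Of all genes 26% were higher in the quadriceps in 6 of 6 mice. The Camk2a difference within a mouse ran from 13.2 TPM in M08 to 65.9 TPM in M20, and that of Camk2d from 0.860 TPM in M20 to 18.6 TPM in M12. The mice with the largest and smallest differences were not the same for the 2 genes.

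The flight effect was not shown to differ between the muscles for any member. The interaction, quadriceps minus gastrocnemius, was -0.21 on the log2 scale for Camk2g (95% interval -0.48 to 0.06, limma adjusted p = 0.958) and 0.12 for Camk2a (-0.17 to 0.41, adjusted p = 0.979). It was -0.10 for Camk2b (-0.37 to 0.16, adjusted p = 0.979) and -0.07 for Camk2d (-0.51 to 0.36, adjusted p = 0.986). Over all genes 0% were called (0 of 10481, with 534 at an unadjusted p under 0.05), and 0 of the 4 members had an unadjusted p under 0.05.

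The summed TPM of the family was 366.4 ± 6.85 in the ground control gastrocnemius, 387.1 ± 24.1 in the flight gastrocnemius, 432.3 ± 2.18 in the ground control quadriceps and 442.5 ± 19.1 in the flight quadriceps (SD, n = 3). Shares of this sum describe the mixture of Camk2 RNA by gene in a way that a common scaling of a library cannot move. They do not separate alpha-KAP from the kinase in Camk2a, and they do not measure subunit protein. In the ground control quadriceps Camk2a made up 36.7, 40.6 and 36.2% of the family, and in the flight quadriceps 42.5, 42.7 and 45.5%. The mean shares were 37.8 ± 2.41% and 43.6 ± 1.69%, a difference of 5.73 points with groups apart (exact permutation test, two-sided, p = 0.1).

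Camk2b had the lower share after flight in both muscles. In the gastrocnemius it was 17.8, 18.6 and 16.9% on the ground and 16.1, 16.7 and 15.5% after flight, a difference of -1.67 points (exact permutation p = 0.1). The quadriceps shares were 17.3, 16.2 and 15.7% on the ground and 14.8, 13.6 and 14.3% after flight, a difference of -2.15 points (exact permutation p = 0.1). The groups were apart in both muscles. The same mice gave both muscles, so these are not independent observations of flight.

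With 3 against 3 libraries 0.1 is the smallest p that the 20 relabellings allow, so no share could pass 0.05, and 8 shares were compared. Camk2g had a mean share of 35.2 ± 2.68% on the ground and 32.1 ± 0.634% after flight in the quadriceps (exact permutation p = 0.2). In the gastrocnemius it was 34.9 ± 1.51% and 35.8 ± 1.35% (exact permutation p = 0.5). The Camk2d share was 9.60% and 9.23% in the gastrocnemius and 10.6% and 10.1% in the quadriceps (exact permutation p = 0.7 for each). Camk2a in the gastrocnemius was 37.8 ± 1.29% and 38.8 ± 1.52% (exact permutation p = 0.4). The groups overlapped for all of these.

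**Figure D3:**
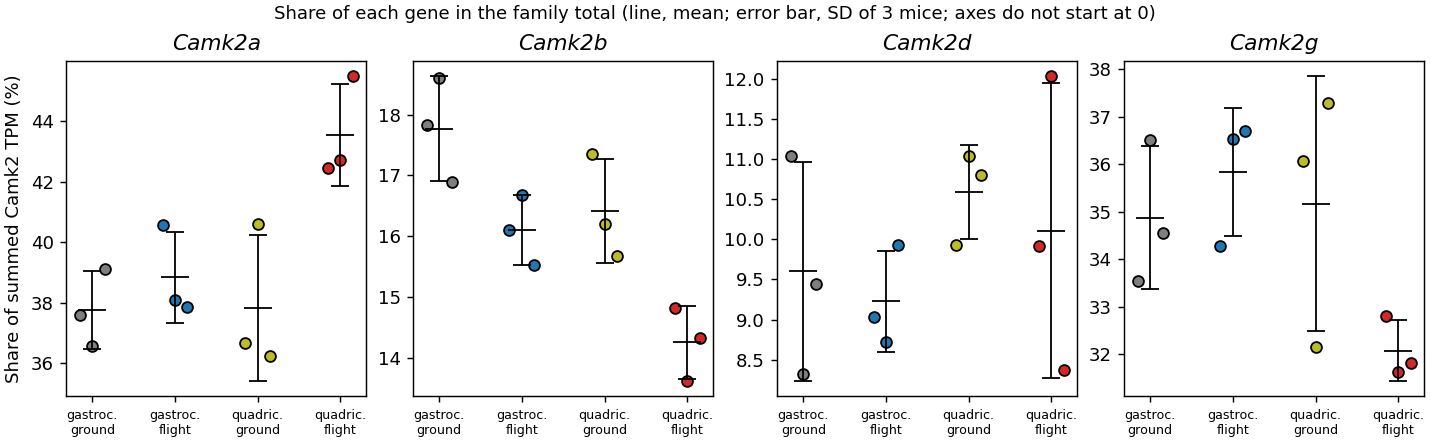
Share of each Camk2 gene in the summed TPM of the 4 genes (y axis, percent, not starting at 0), per library, by muscle and condition, with the mean and SD of 3 mice. In the quadriceps the 3 flight libraries hold Camk2a shares of 42.5 to 45.5%, above the ground control range of 36.2 to 40.6%.

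Splicing was measured from junction reads as percent spliced in (PSI), the length-corrected share of reads that include an exon in a skipped exon (SE) event, or that use the first of the exons of a mutually exclusive (MXE) event. ΔPSI is flight minus ground unless another order is named. The 15 Camk2 events comprised 13 SE and 2 MXE events, 9 in Camk2g, 3 in Camk2b and 3 in Camk2d. Each sample had 10 to 226 junction reads at an event, with a median of 53, which leaves wide counting intervals. The tables list samples by position without naming the mouse, so a position below is not a replicate number. Junction reads without molecular identifiers are not independent molecules, and intervals and limits from them cover counting error only.

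No Camk2 event was called in any comparison (limma adjusted p under 0.05 and ΔPSI over 5 points). With its own test at the same thresholds, the study reported many more flight events over all genes in both muscles. The lack of calls here therefore does not show that Camk2 splicing was unchanged. In the gastrocnemius 15 Camk2 events were tested, 1 had an unadjusted p under 0.05 and the smallest adjusted p was 0.160, while 0.378% of all events were called (8 of 2118). In the quadriceps 14 were tested, 0 had an unadjusted p under 0.05, and 0% of all events were called (0 of 2062, with 158 at an unadjusted p under 0.05). The median ΔPSI of the members was -2.26 points in the gastrocnemius and 0.818 points in the quadriceps, against 0.0788 and 0.368 points over all events. Groups did not overlap for 3 of 15 members in the gastrocnemius and for 0 of 14 in the quadriceps, beside 16.2% and 12.5% of all events.

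The Camk2g events share reads, since the 33-base and 69-base exons are neighbors and 5 events use them. The 69-base exon was mostly included. Between the constant exons its PSI in the gastrocnemius was 76.2 ± 6.29% on the ground and 77.5 ± 6.90% after flight (SD, n = 3), a ΔPSI of 1.28 points (limma adjusted p = 0.965). In the quadriceps the ground control samples were at 76.9, 84.8 and 44.9%, with position 3 far below the others. The flight samples had a mean of 69.7 ± 14.2%, and ΔPSI was 0.867 points (limma adjusted p = 0.993).

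The 33-base exon, of the nuclear localization class, was mostly skipped. As an alternative to the 69-base exon its PSI in the gastrocnemius was 8.88 ± 0.819% on the ground and 6.62 ± 3.46% after flight (limma adjusted p = 0.808). Quadriceps values were 11.2 ± 4.18% and 11.7 ± 10.4% (limma adjusted p = 0.959). Counted against direct joining of the constant exons its mean PSI was 18.8 to 24.8% over the 4 groups, and counted ahead of an included 69-base exon 5.63 to 12.8%. The 69-base exon following an included 33-base exon had means of 85.6% and 80.6% in the gastrocnemius, ground then flight, and 82.7% and 70.5% in the quadriceps. None of these differences passed the test, and the quadriceps value of -12.1 points, the largest ΔPSI by size of any member, had a limma adjusted p of 0.845. It rested on flight position 1, at 50% with 8 of 12 reads, while the other flight samples were at 81.0 and 80.6%. Leaving out 1 sample gave -17.3 to -1.87 points.

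The 63-base exon of Camk2g, the GC-rich relative of the 75-base Camk2b exon, was included at intermediate levels. Its PSI was 36.7 ± 10.97% and 39.0 ± 4.32% in the gastrocnemius, ground then flight, and 41.4 ± 18.4% and 40.3 ± 9.61% in the quadriceps (limma adjusted p = 0.946 and 0.992). The 114-base exon was rarely included, at 4.75 ± 1.68% and 5.77 ± 0.949% in the gastrocnemius and 1.26 ± 1.30% and 2.03 ± 2.96% in the quadriceps. The PSI ranges of these 2 exons were apart in both muscles, and ground and flight samples overlapped for each. In the quadriceps the 114-base event passed the filter only through flight position 3, at 5.43%.

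The frame-shifting exons of Camk2g were included in nearly all reads. For the 55-base exon, 0 of 564 junction reads in the ground control gastrocnemius skipped it, which allows a skipping share of up to 0.532% of reads. In the flight gastrocnemius 2, 5 and 1 reads skipped it, 8 of 595 in all, and PSI was 98.0, 94.2 and 99.1%. ΔPSI was -2.89 points (log2 ratio change -2.41 ± 0.55 SE, limma unadjusted p = 0.00197, adjusted p = 0.160), with groups that did not overlap.

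The event was tested only because 1 flight sample was below 95%, so it passed the filter through the flight group. It had the smallest p among the members and did not pass, and its ΔPSI was under 5 points. The fitted log2 ratio change depends on the 0.5 reads added where no skipping read was seen, and is no bound. In the quadriceps 1 of 447 ground control reads and 2 of 402 flight reads skipped the exon, and the event was not tested there because PSI was at or over 95% in all 6 samples.

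For the 95-base exon, skipping reads came from single samples. In the quadriceps 9 of 53 reads at ground position 3 skipped it, a PSI of 71.0% (95% Wilson interval 54.8 to 83.2%), while the 5 other quadriceps samples had 0 skipping reads. In the gastrocnemius 2 of 70 reads at ground position 2 skipped it and the 5 other samples had 0. In the flight gastrocnemius 0 of 169 reads skipped it, which allows up to 1.78% of reads, and in the flight quadriceps 0 of 157, which allows up to 1.91%. The quadriceps ΔPSI of 9.68 points (limma adjusted p = 0.810) rested on that 1 sample.

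Quadriceps ground position 3 was also the lowest of its group for the 60-base Camk2d exon and the 63-base and 114-base Camk2g exons. The same held for the 69-base and 33-base Camk2g exons between the constant exons. It was the highest of its group for the 129-base and 75-base Camk2b exons and the 89-base Camk2d exon. The 33-base Camk2g exon was also highest there when counted against, or ahead of, the 69-base exon. Position 3 lay between the others for the 42-base Camk2d exon and the Camk2b 72-base against 45-base event. So it did for the 69-base Camk2g exon after the 33-base exon. With 3 samples, any position would be at an end of its group in most events. The 33-base and 69-base events share reads, and whether this position departs from the others was not tested. Which mouse this position came from is not given by the splicing tables.

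Among the Camk2b events in the gastrocnemius, the 129-base exon had the largest ΔPSI by size. Its PSI there was 69.7, 61.3 and 58.7% on the ground and 58.0, 51.7 and 52.1% after flight. All flight samples were below all ground control samples, with 58.0% after flight and 58.7% on the ground as the nearest values. The means were 63.2 ± 5.75% and 53.9 ± 3.52%, a ΔPSI of -9.29 points (limma adjusted p = 0.731).

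In the quadriceps the same exon was at 45.1, 50 and 66.2% on the ground and 43.5, 60.7 and 66.7% after flight. Those groups overlapped, and ΔPSI was 3.21 points in the other direction (limma adjusted p = 0.959). The difference of the flight effect between the muscles was not called for this exon or for any other Camk2 event, where the smallest adjusted p was 0.804 and 0.161% of all events were called (3 of 1858).

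Annotated Camk2b transcripts can carry both the 72-base and the 45-base exon, and this MXE event counts only reads that used 1 without the other. The share of the 72-base exon in these reads was 57.6 ± 7.27% on the ground and 58.5 ± 1.17% after flight in the gastrocnemius (limma adjusted p = 0.972). In the quadriceps it was 51.3 ± 2.39% on the ground and 57.0 ± 4.88% after flight, a ΔPSI of 5.68 points (limma adjusted p = 0.885). The 75-base exon was included at 90.8 and 91.1% in the gastrocnemius and 96.1 and 98.0% in the quadriceps, ground then flight. For this event in the gastrocnemius the ΔPSI was 0.241 points while the fitted log2 ratio change was -0.15, so the sign differed between the scales. In the quadriceps it also differed for the Camk2g 33-base against 69-base event (0.489 points, log2 -0.20). The 33-base Camk2g exon between the constant exons did the same there (0.659 points, log2 -0.18).

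Among the Camk2d events, the 42-base exon, the close relative of the 45-base Camk2b exon, was the less used form. In the gastrocnemius its PSI was 23.0, 23.5 and 25.2% on the ground and 19.9, 11.9 and 11.9% after flight, with groups apart and a ΔPSI of -9.37 points (limma adjusted p = 0.714). These values rest on 14 inclusion reads of 38 on the ground and 11 of 44 after flight. For ground position 1 of the gastrocnemius, 5 of 14 reads gave a 95% Wilson interval of 9.52 to 46.0%, which spans every sample of both groups.

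In the quadriceps the 42-base exon was at 11.9, 2.76 and 5.65% on the ground and 23.9, 4.88 and 11.9% after flight. The groups overlapped and ΔPSI was 6.79 points (limma adjusted p = 0.859). The 60-base exon, the relative of the 72-base Camk2b exon, was included at 89.6 ± 9.55% and 85.7 ± 4.76% in the gastrocnemius. In the quadriceps it was at 79.8 ± 19.0% on the ground, with position 3 at 57.9%, and at 87.6 ± 3.28% after flight. The 89-base exon was included at 96.3 and 92.0% in the gastrocnemius and 94.1 and 88.7% in the quadriceps, ground then flight. The 42-base and 60-base events share a splice junction and are not independent.

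**Figure D4:**
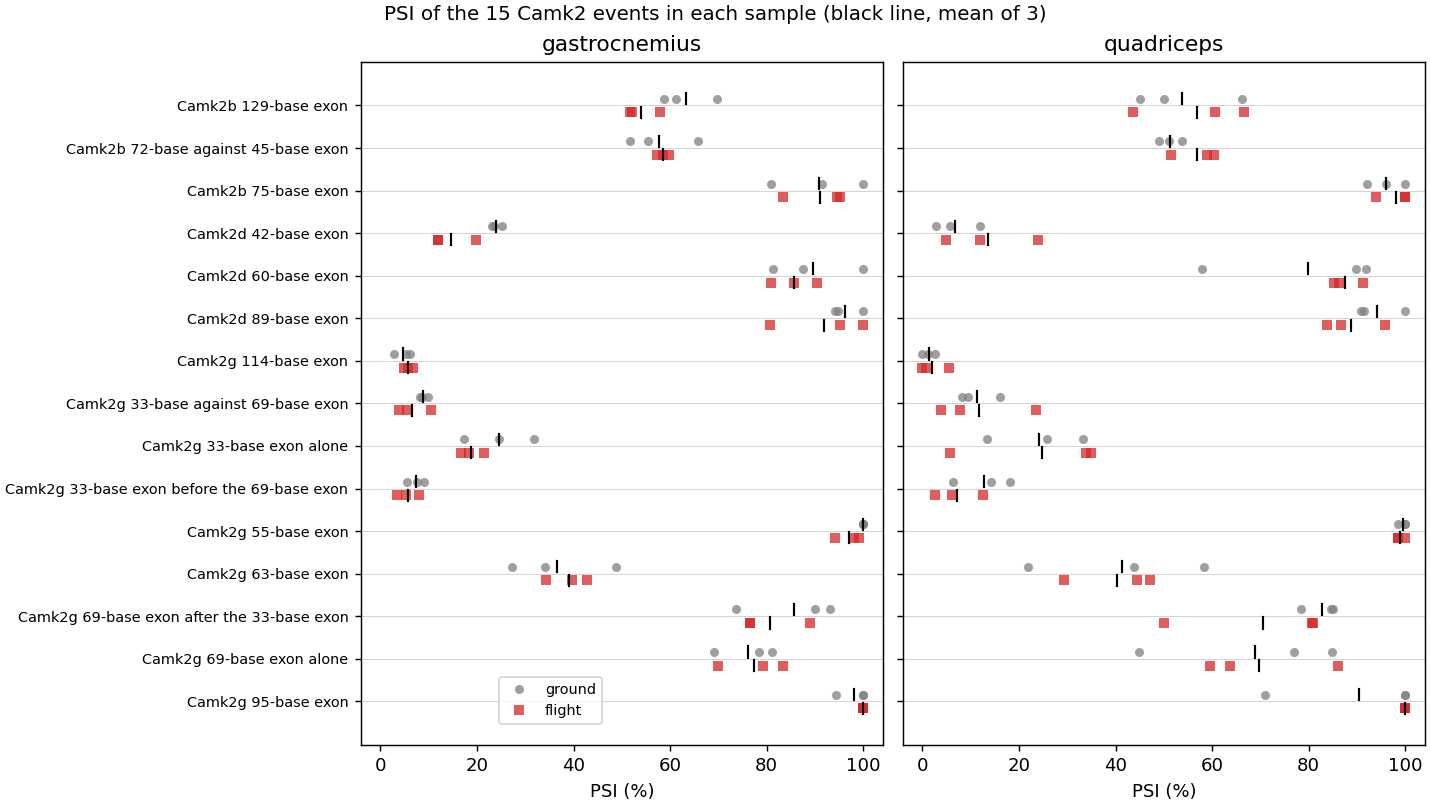
PSI of the Camk2 events in each sample (x axis, percent spliced in) for each event (y axis), by muscle and condition, with points for samples and a line for the mean of 3. The Camk2b 129-base and Camk2d 42-base exons have flight samples below ground control samples in the gastrocnemius and overlapping samples in the quadriceps, and the Camk2g 95-base exon has 1 sample at 71.0%.

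Between the muscles no Camk2 event was called. On the ground 14 events were tested, 2 had an unadjusted p under 0.05 and 2 did not overlap, beside 20% of all events that did not overlap and 6.46% called (120 of 1858). The 42-base Camk2d exon was at 23.9 ± 1.13% in the ground control gastrocnemius and 6.76 ± 4.65% in the quadriceps, a difference of -17.2 points with a limma adjusted p of 0.220. The 114-base Camk2g exon was different by -3.50 points in the quadriceps (limma adjusted p = 0.291). These were the 2 events with groups apart.

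After flight 14 were tested, 1 had an unadjusted p under 0.05 and 0 did not overlap, beside 19.9% of all events that did not overlap and 5.54% called (103 of 1858). The 1 was again the 114-base Camk2g exon, with -3.75 points in the quadriceps (limma adjusted p = 0.262). The same limits of filter, size and added reads held, with 8 of 259 flight quadriceps reads including it. The 42-base Camk2d exon had means of 14.5 ± 4.64% and 13.5 ± 9.62%, a difference of -0.996 points (limma adjusted p = 0.925). The median differences of the member events, quadriceps minus gastrocnemius, were -3.21 points on the ground and 0.638 points after flight, against -0.515 and -0.453 points over all events.

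The genes that act on the kinase were described by lists. Of calmodulin, the CaMKII inhibitors and the phosphatases of the kinase, 4 of 7 genes were tested, and 0 were called for flight in either muscle. The 4 had a median log2 change of 0.20 in the gastrocnemius and 0.07 in the quadriceps, against 0.02 and 0.01 over all genes. Calm3, which encodes the activator calmodulin, had mean levels of 150 and 203 TPM in the ground control and flight gastrocnemius (log2 0.42, limma adjusted p = 0.217), and Calm2, which encodes the same protein, of 120 and 143 TPM (log2 0.25, adjusted p = 0.284).

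Calm3 was called between the muscles on the ground, at 150 TPM in the gastrocnemius and 239 TPM in the quadriceps (log2 0.66 ± 0.09 SE, limma adjusted p = 0.00751). After median-ratio rescaling it was 0.54 higher, under 1.5-fold, with an adjusted p of 0.0281, and it was also not called without M03 or without M08 (adjusted p up to 0.0577 over all settings). By adjusted p alone both Calm2 and Calm3 were higher in the quadriceps, on the ground and after flight. The inhibitor genes Camk2n1 (means of 1.24 to 2.10 TPM) and Camk2n2 (0.50 to 0.929 TPM) were below the filter, as was the phosphatase gene Ppm1e.

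Other calmodulin-dependent kinases were low, and 3 of 7 were tested (Camk1, Pnck and Camkk2), with 0 called in any comparison. Their median log2 change with flight was 0.03 in the gastrocnemius and -0.03 in the quadriceps. Camkk2, which activates CaMKI and AMPK, had log2 changes of 0.24 and 0.25 (limma adjusted p = 0.545 and 0.782). These genes were all below the level of Camk2d in mean TPM.

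Of the subunits and inhibitors of calcineurin, the calmodulin-dependent phosphatase, 6 of 7 were tested and 0 were called for flight, with medians of -0.12 in the gastrocnemius and -0.06 in the quadriceps. Ppp3r1, the regulatory subunit, was called between the muscles after flight, at 46.8 TPM in the gastrocnemius and 70.6 TPM in the quadriceps (log2 0.59, limma adjusted p = 0.00872). After rescaling it was 0.47 higher, under 1.5-fold, with an adjusted p of 0.0332, and it was also not called with a pseudocount of 5 TPM (log2 0.55) or without M12 (adjusted p up to 0.0578 over all settings).

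Of 12 substrates and downstream factors in muscle, all 12 were tested, and 1 was called for flight in the gastrocnemius and 0 in the quadriceps. Atp2a2, the slow-type calcium pump of the sarcoplasmic reticulum, fell in the gastrocnemius from 154.9 to 84.0 TPM (log2 -0.88 ± 0.10 SE, limma adjusted p = 0.0361). That call was kept in 4 of 13 other settings, with log2 changes of -0.92 to -0.80 and adjusted p up to 0.192, and of the single libraries only M11 could be left out without losing it. Sln, a regulator of the calcium pump, had means of 1.21 and 0.535 TPM in the ground control and flight gastrocnemius and 5.58 and 4.24 TPM in the quadriceps. It passed the 5 TPM filter only through the quadriceps, the muscle where it was higher, so its call between the muscles after flight (limma adjusted p = 0.0244) is no support for a difference. That call was lost without the filter (adjusted p = 0.0834) and in each of the 3 fits that left out a flight mouse (adjusted p up to 0.130).

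The other substrates did not pass for flight. They included the calcium release channel Ryr1, with mean levels of 1084 and 1237 TPM in the gastrocnemius (log2 0.19, limma adjusted p = 0.257), and Hdac4, with log2 changes of 0.33 and 0.41 in the 2 muscles (adjusted p = 0.541 and 0.567). Mef2c had means of 386.1 and 466.8 TPM in the gastrocnemius (log2 0.27, adjusted p = 0.285). The 12 had a median log2 change of 0.06 in the gastrocnemius and 0.02 in the quadriceps.

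Of 9 RNA-binding proteins that act on CaMKII exons in muscle, heart or brain, all 9 were tested and 0 were called in any comparison. By adjusted p alone 1 passed, Celf2, which was higher in the quadriceps than in the gastrocnemius on the ground (log2 0.38, limma adjusted p = 0.0417) and under 1.5-fold. For flight the smallest adjusted p was that of Rbfox2, with 59.4 TPM in the ground control and 87.9 TPM in the flight gastrocnemius (log2 0.56 ± 0.09 SE, limma adjusted p = 0.0774), and 0.29 in the quadriceps (adjusted p = 0.491). Rbfox1 had log2 changes of 0.21 and 0.22 in the 2 muscles (adjusted p = 0.272 and 0.362). The list had a median of 0.09 for flight in each muscle.

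Markers of other cell types and fiber types moved with some of the same groups. The skeletal muscle markers Acta1, Ckm, Myh4 and Tnnt3 summed to 63441 to 86873 TPM over all 12 libraries, so the defining markers of the labelled tissue were present. Fast fiber markers summed to 60530 to 65428 TPM in the ground control quadriceps and 69012 to 70797 TPM in the flight quadriceps, apart in the same direction as Camk2a. The sums are mostly Myh4, Tnnt3 and Tnni2, and the 6 markers did not all go in the same direction, with Myh2 at log2 -0.34 in the gastrocnemius (limma adjusted p = 0.218) and -0.36 in the quadriceps (adjusted p = 0.298), and 0 of 6 passing for flight. In the gastrocnemius the sums were also apart, at 45037 to 45296 and 49579 to 51525 TPM, where the Camk2a groups overlapped. Slow fiber markers summed to 1571 to 1924 TPM in the ground control gastrocnemius and 975 to 1179 TPM after flight, with 2 of 6 called lower.

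Between the muscles, nerve and Schwann cell markers summed to 106 to 235 TPM in the gastrocnemius and 39.4 to 65.7 TPM in the quadriceps, with 3 of 4 tested called lower in each condition. Markers of neurons, where Camk2a and Camk2b are abundant, summed to 2.24 to 3.63 TPM in every library and none was tested. Adipocyte markers were highest in the ground control quadriceps, at 269.5 to 473.9 TPM, with 3 of 4 called higher than in the ground control gastrocnemius. In the flight quadriceps they summed to 175.4 to 235.9 TPM, with a median log2 change of -1.08 for flight and 0 of 4 called. Macrophage markers, of which 1 of 3 was tested, summed to 6.50 to 9.67 TPM in the ground control quadriceps and 10.4 to 12.7 TPM in the flight quadriceps. Of 3 smooth muscle markers tested, 2 were lower in the quadriceps by adjusted p alone in both conditions, Acta2 (log2 -0.56 on the ground, limma adjusted p = 0.0181) and Myh11 (-0.38, adjusted p = 0.0272), and neither passed the 1.5-fold minimum. No tested marker of endothelium, macrophages, blood or heart was called by limma in any comparison. The part of these markers in the Camk2 values was not tested.

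Across the 12 libraries the members did not follow each other closely. Their log2 levels correlated at r = 0.56 for Camk2a with Camk2d and 0.53 for Camk2b with Camk2g, and at 0.07 for Camk2b with Camk2d. The genes whose pattern was most like Camk2a were Rsl24d1 (r = 0.945), Pkm (0.941) and Ppat (0.938). Those for Camk2b were Txn1 (0.926), Kxd1 (0.914) and Coa3 (0.909), for Camk2d Cul4a (0.943), Dynlt3 (0.919) and Olfr131 (0.917), and for Camk2g Tmem179b (0.908), Stk17b (0.907) and Epg5 (0.900). These are Pearson correlations of log2(TPM + 1) over 12 libraries that share 6 mice and 2 muscles, given as a description.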

How the data were processed

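RNA was sequenced from the gastrocnemius and quadriceps of 6 mice as stranded, polyA-selected, single-end libraries. Per the labels and the study's methods, the authors aligned reads to mm10 with STAR 2.7.1a, estimated TPM with kallisto 0.46.0 and summed them per gene with tximport. The deposited TPM are scaled within a library and hold no read counts. The study reports the depth of the libraries, with a ground control quadriceps sample the lowest in uniquely mapped reads. The authors counted splice junction reads with rMATS-turbo (version not given in the sources used here) and removed events with few junction reads or with PSI near 0 or 100% throughout the 12 samples. The deposited splicing tables hold whole junction reads and effective lengths per sample, which were used. They also hold PSI and the authors' own group difference, p-values and FDR, which were not used, and neither was DESeq2 1.26.0, which the authors' notes name for expression. Columns of per-sample values left out numbered 0.

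For expression, limma 3.58.1 (R 4.3.3, lmFit and eBayes with a trend, two-sided) was fitted to log2(TPM + 1) over the 10481 genes above 5 TPM in at least 1 of the 12 libraries, with Benjamini-Hochberg adjustment over all of them. A fold change on this scale understates the change of low genes. A called gene had an adjusted p under 0.05 and changed by over 1.5-fold. Flight and ground were compared inside a muscle, and the muscles were compared over 12 libraries with mouse as a block, since both muscles came from the same animal. Over all genes tested, the deviations of a mouse's 2 muscles from their group means correlated at r = -0.119 to 0.333. Flight and ground mice share only a replicate number.

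For splicing, limma was fitted to log2 inclusion over skipping reads, after adding 0.5 to each and dividing by the effective lengths. Events were kept with a mean over 10 reads in both groups, and dropped where all 6 samples had PSI of at most 5% or of at least 95%. A called event had an adjusted p under 0.05 and ΔPSI over 5 points. Samples in these tables have no names and were not matched to mice. Shares of the family TPM were compared by exact permutation. Both limma procedures were also run on simulated data. For splicing the simulation gave every event the same spread beyond counting error and scored the adjusted p alone. It does not give the recovery to be had for these events.

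The genes named are the 4 members, all their SE and MXE events, genes of 5 pathway lists, cell type markers and the 3 genes most correlated with each member. The members and lists were chosen with earlier results of these data known. Within the lists, genes called or nearest to a call, and a few with known roles, were named after their values were seen. Exon sequences and coordinates are from GRCm38 transcripts. Alternatives tried were the pseudocount, the filters, median-ratio rescaling, the eBayes trend, blocks, weights from junction reads and leaving out each sample. Values of 1 listed gene and 1 exon sequence are not reported here.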

Additional observations from a re-analysis of the deposited data

How the results depend on the processing

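The number of Camk2 genes or events called was 0 in every comparison under every alternative listed in the methods, and with the replicate block it was also 0. The adjusted p alone, without a minimum fold, an alternative chosen after seeing the data, gave 1 member after flight between the muscles (Camk2a) and 0 on the ground. That Camk2a p was 0.0347 to 0.0385 with other pseudocounts, 0.10 without a filter, 0.143 after rescaling and 0.0771 without a trend. It was 0.0250 with no mouse block, a fit that ignores that both muscles came from the same mice. Of 248 log2 changes of the 4 genes under alternatives 238 kept their direction, of 374 ΔPSI values 347, and of 54 share differences 50. Numbers do not pair flight with ground mice, whose deviations correlated at -0.18 to 0.111. The replicate block took all genes called for flight from 24 to 0 in the gastrocnemius and from 3 to 0 in the quadriceps. For splicing, no paired analysis was possible because the samples in those tables have no names.

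Rescaling reversed Camk2b on the ground (-0.001) and after flight (-0.1021) and Camk2g after flight (-0.0863) between the muscles. Without Camk2a in the sum, the quadriceps share differences of Camk2d (0.7929 points) and Camk2g (0.3479) reversed. Shares of the family add up to the whole, so a larger Camk2a share lowers the others together. Leaving Camk2a out of the sum removes this. Rescaling lowered the between-muscle difference of the median gene by 0.11, and those of the members along with it. No biological cause was tested.

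Leaving out 1 sample moved some small differences through 0. On the log2 scale Camk2d ranged from -0.0573 to 0.115 for flight in the gastrocnemius, from -0.1458 to 0.0498 in the quadriceps and from -0.245 to 0.0611 for the interaction, and Camk2b from -0.0535 to 0.0736 between muscles after flight. The Camk2d share ranged from -1.014 to 0.3439 points in the gastrocnemius and from -1.4501 to 0.382 in the quadriceps. In the gastrocnemius ΔPSI ranged from -2.048 to 4.965 points for the Camk2b 72-base against 45-base event, -4.689 to 4.834 for its 75-base exon, -8.036 to 1.339 and -8.388 to 1.289 for the 60-base and 89-base Camk2d exons, and -2.388 to 8.335 and -2.27 to 5.085 for the 63-base and 69-base Camk2g exons. In the quadriceps it ranged from -1.644 to 9.925 and -0.059 to 3.922 for the 129-base and 75-base Camk2b exons, -3.225 to 13.746 for the 60-base Camk2d exon, and -5.416 to 4.391, -4.718 to 10.253, -10.861 to 7.368 and -11.122 to 8.834 for the Camk2g 33-base against 69-base, 33-base, 63-base and 69-base events. The 42-base Camk2d exon between muscles after flight ranged from -6.173 to 3.339.

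Over all features, genes called for flight in the gastrocnemius numbered 1 without flight replicate 3 and 133 without flight replicate 1. Those between the muscles fell to 36 without ground replicate 2 and to 77 without flight replicate 2, and without a filter on low values to 77 on the ground and 200 after flight. Weights from the junction reads raised events called for flight from 8 to 36 and from 0 to 18. Depth limits the splicing values, with as few as 10 junction reads in a sample, and TPM hold no read counts per gene.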
